A study of Oryza sativa with 9 samples.

Results

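In rice leaves, 192 genes stood on the same side of the wild type in plants overexpressing OsCOMT and in plants carrying a mutation of OsCOMT. Of these genes, 105 were higher in both lines and 87 were lower in both. They were chosen from the 37858 genes of the deposited table, whose values are FPKM, read counts divided by gene length and by the size of the library. A gene was taken when its mean was at least 1 FPKM over the 9 libraries and all libraries of both lines lay above, or all below, every wild-type library. In addition, the ratio of the mean of FPKM + 1 to that of the wild type had to reach 1.5 in both lines, or fall to its inverse in both. The gene Os06g0157700 and the run Os11g0197600 to Os11g0227100 on chromosome 11 were left out. Both lines were set against the same 3 wild-type libraries, so the 2 folds of a gene share their denominator and are not independent of each other. The values that chose the genes are therefore given as a description, with no test.

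Leaves of rice (Oryza sativa) were taken 85 days after sowing, and RNA was sequenced from 3 libraries per genotype. WT is the wild type, OE an OsCOMT overexpression line, and the mutant carries a mutation of the same gene. The labels do not give the cultivar, the promoter behind the overexpression, the kind of mutation or the number of lines or plants behind the libraries. The titles number the mutant libraries as Mutant1 to Mutant3, and whether these are separate lines is not stated. The titles of the WT and OE libraries also carry the number 100, which those of the mutant do not, and the labels do not explain it. What this number stands for therefore cannot be told apart from the mutant group. Where replicates are not known to be separate plants, p-values cover only the spread among these libraries, part of which can be technical. In whole leaves, fewer cells of a type and less RNA per cell cannot be told apart.

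OsCOMT encodes a caffeic acid O-methyltransferase, which methylates precursors of lignin and can also complete the synthesis of melatonin. Lignin stiffens the walls of the vascular tissue, and melatonin is an indoleamine that has been tied to the timing of leaf senescence. Several of the genes below belong to hormone and defence systems of the leaf. JAZ proteins hold back the jasmonate response until the hormone triggers their breakdown, and their genes are themselves induced by jasmonate. Type-A response regulators are induced by cytokinin and dampen its signal, while LOG enzymes release active cytokinin from its nucleotide form. Chitinases cut a polymer of fungal cell walls.

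OsCOMT itself (Os08g0157500, on chromosome 8) had FPKM of 259, 237 and 228 in WT, 1945, 3162 and 2823 in OE and 226, 398 and 458 in the mutant, here and below in the order of replicates 1 to 3. Every OE library exceeded WT, and the mutant range held that of WT, which says nothing on the label of the mutant, as a mutation can leave its transcript in place. Libraries held 10659611 to 11792005 reads, as recovered from the steps of the FPKM values. The leaf marker genes GLO1 and GLO5 lay between 73.2 and 211 FPKM in the 9 libraries, and RCA had means of 192, 170 and 2502 FPKM in WT, OE and the mutant. Of 6 panicle and meristem genes, OSH1, MADS6 and MADS7 were at or near 0, at most 0.0818 FPKM. MADS14, MADS15 and MADS1 were not, with means in WT, OE and the mutant of 103, 84.6 and 109 FPKM, 7.89, 2.28 and 6.10 FPKM, and 3.90, 3.52 and 8.399 FPKM. The endosperm genes GLUA2 and GLUA1 had means of 7.41, 7.64 and 5.97 FPKM and of 1.66, 1.602 and 1.64 FPKM. Of the root genes NRT2.1 was at or near 0 and LSI1 had means of 9.92, 7.87 and 50.8 FPKM, and the part of such other tissue genes in the results below was not tested.

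The mutant stood further from WT than OE did in most of these genes, as it did over the whole table. Over all 19850 genes tested, the quartiles of the log2 fold change were -0.12 and 0.12 in OE and -0.36 and 0.28 in the mutant, around medians of -0.00 and -0.01. Among the genes higher in both lines, the median log2 fold change on the log2(FPKM + 1) scale was 0.92 in OE (quartiles 0.77 and 1.18) and 1.44 in the mutant (quartiles 0.96 and 1.88). Among the genes lower in both, it was -0.86 in OE and -1.51 in the mutant, with lower quartiles of -1.14 and -2.42. The mutant fold exceeded the OE fold for 77 of the 105 higher genes and 71 of the 87 lower genes. It was at least 2 times the OE fold for 28 and 34 genes, whereas the OE fold was at least 2 times the mutant fold for 5 and 3. Both folds reached 2 for 36 higher and 24 lower genes, and both reached 3 for 11 and 2.

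**Figure D1:**
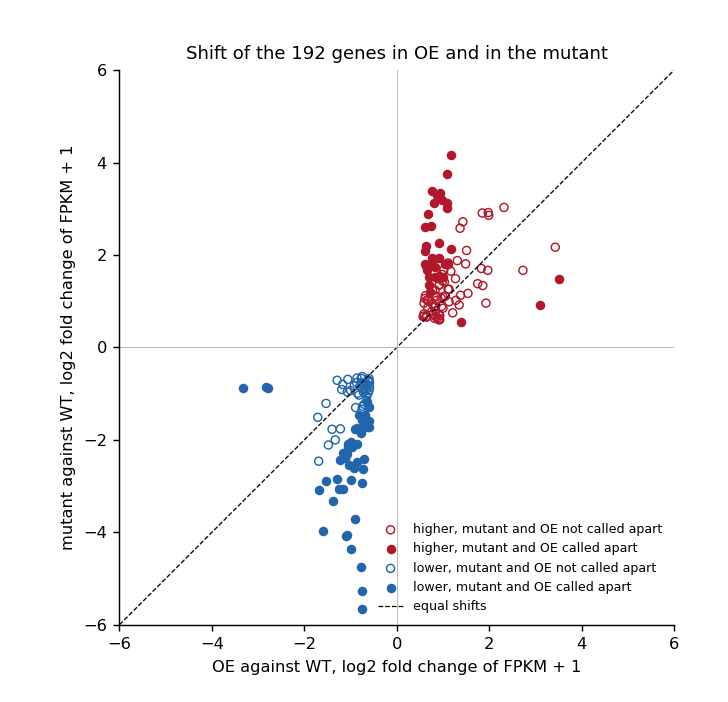
Each point is 1 of the 192 genes, with its log2 fold change of FPKM + 1 in OE against WT on the x axis and in the mutant against WT on the y axis, and filled where the mutant and OE differed at a limma adjusted p under 0.05. Most points lie further from 0 on the mutant axis than on the OE axis, and the empty quadrants follow from the way the genes were chosen.

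In limma's moderated test over all genes, 8 of the 192 genes passed an adjusted p of 0.05 in OE against WT, 7 higher and 1 lower. Of all genes tested 0.232% passed there, 0.171% higher and 0.0605% lower. In the mutant against WT 175 of the 192 passed, 93 higher and 82 lower, where 42% of all genes did, 19.6% higher and 22.4% lower. The rule also asked that groups not overlap, which held in OE against WT for 16.4% of all genes tested (7.6% higher, 8.81% lower) and in the mutant against WT for 55.4% (26% higher, 29.4% lower). Both counts come from contrasts that chose the genes, so they describe the genes and support nothing. Just inside the fold limit stood Os04g0678400 with a smaller fold of 1.501 and just outside it Os03g0693000 with 1.488. The lower genes were filled more densely outside than inside. There 45 genes whose groups did not overlap had a smaller fold between 1.4 and 1.5, and 23 had one between 1.5 and 1.6, against 21 and 23 among the higher genes.

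The comparison of the mutant with OE did not enter the choice of the genes, although it rests on 6 of the 9 libraries that did and so is not independent of it. With limma, 81 of the 192 genes passed (42.2%), close to the 43.4% of all genes tested that passed in this comparison. The directions below are a description, since the genes were chosen on the same OE and mutant values and the mutant departed further from WT over the whole table. Of the 105 higher genes 33 were higher still in the mutant (31.4%, against 20.5% of all genes), 3 were lower in the mutant than in OE (2.86%, against 22.9%), and 69 did not pass. Of the 87 lower genes 42 were lower still in the mutant (48.3%, against 22.9%), 3 were higher (3.45%, against 20.5%), and 42 did not pass. The median difference between the mutant and OE was 0.43 on the log2 scale for the higher genes and -0.64 for the lower genes, and -0.02 over all genes tested. The mutant and OE libraries overlapped for 67 of the higher and 43 of the lower genes. All mutant libraries stood above all OE libraries for 33 of the higher genes and below them for 41 of the lower genes, and over all genes tested for 25.4% and 27.1%, or 52.5% in all.

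That every OE and mutant library was shifted follows from the rule, and the size by library is given as a description. The median distance from the WT mean of the higher genes was 0.79, 0.94 and 1.10 on the log2(FPKM + 1) scale in the OE libraries 1 to 3, and 1.16, 1.52 and 1.48 in the mutant libraries. For the lower genes it was -0.82, -0.97 and -0.86 in OE and -1.65, -1.47 and -1.66 in the mutant. The WT libraries spread around their own mean by -0.07 to 0.08 for the higher genes and by -0.19 to 0.20 for the lower ones. WT replicate 1 was the highest WT library for 56 of the 87 lower genes (64.4%), and WT replicate 3 the lowest for 51 (58.6%), where over all genes tested these libraries were so for 28.1% and 32.5%. OE replicate 1 was the lowest OE library for 60 of the 105 higher genes (57.1%, against 39.0% of all genes). The part of these single libraries in the choice of the genes was not tested beyond leaving each out in turn.

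**Figure D2:**
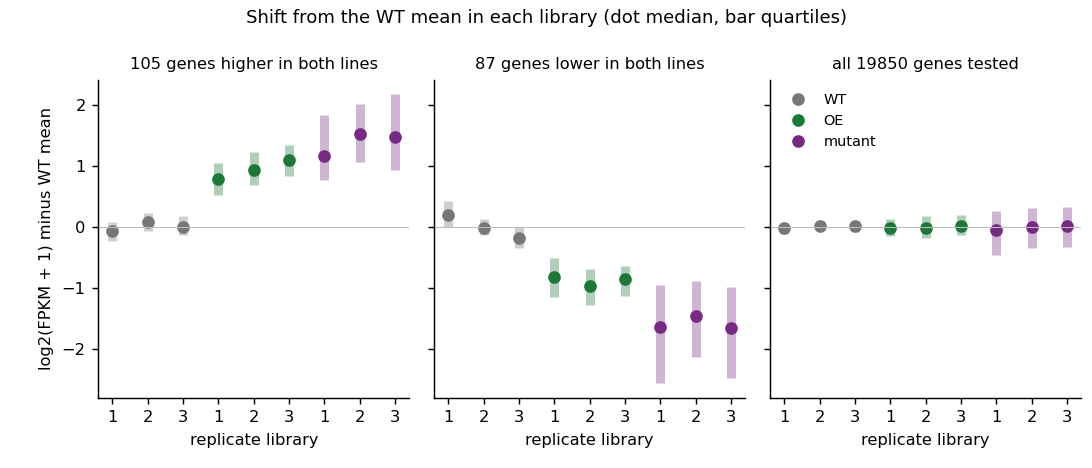
Dots give the median and bars the quartiles, over genes, of log2(FPKM + 1) minus the WT mean in each of the 9 libraries, for the 105 higher genes, the 87 lower genes and all 19850 genes tested. The OE medians of the higher genes lie between 0.79 and 1.10 and the mutant medians between 1.16 and 1.52, while the medians of all genes stay near 0.

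The higher genes were mostly low in WT, with a median WT level of 2.74 FPKM against 13.3 FPKM over all genes tested, and 27 of them had a WT mean under 1 FPKM. Behind them stood a median of 112 reads in WT, summed over its 3 libraries, and 395 in the mutant. The lower genes had median levels of 16.1, 6.35 and 3.54 FPKM in WT, OE and mutant libraries, and 17 of them averaged under 1 FPKM in the mutant. Libraries of a genotype differed more for these genes than for others. The median SD of log2(FPKM + 1) over the OE libraries was 0.321 for the higher and 0.302 for the lower genes, against 0.158 over all genes tested. The genes were not matched for level in these SDs, which are given as a description.

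Among the jasmonate genes, JAZ11 (Os03g0180900, chromosome 3), which encodes a repressor of the jasmonate response, was higher in both lines. It had FPKM of 1.18, 2.996 and 1.68 in WT, 3.05, 11.1 and 20.5 in OE and 10.03, 13.2 and 4.21 in the mutant. The lowest OE library stood just above the highest WT library, and OE and the mutant overlapped. Its fold was 4.25 in OE and 3.44 in the mutant. The mutant and OE differed by -0.12 on the log2 scale (SE 0.58, limma adjusted p = 0.88). Of 8 tested jasmonate genes, 1 passed in the mutant against WT (higher, JAZ11 itself), 0 passed in OE with limma, and 2 were lower in the mutant than in OE. Of all genes tested 19.6% were higher in the mutant against WT, and 22.9% were lower in the mutant than in OE. In OE 2 of the 8, JAZ11 and JAZ12, had an unadjusted limma p under 0.05, as had 10.1% of all genes tested, and with voom on the recovered reads 0 passed in OE and 0 in the mutant. The list's median log2 fold change was 0.47 in OE and 0.56 in the mutant. JAZ12 (Os10g0392400), a further repressor of the family, had means of 1.97, 11.2 and 8.45 FPKM in WT, OE and the mutant. JAZ10 (Os03g0181100) had means of 1.11, 4.03 and 4.28 FPKM. The other tested JAZ genes were lower in the mutant than in WT by their means. JAZ6 (Os03g0402800) was at 41.0, 57.8 and 23.4 FPKM and JAZ8 (Os09g0439200) at 4.08, 9.51 and 3.33 FPKM. Of these JAZ genes only JAZ11 met the rule.

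Of the cytokinin list 1 gene belonged to the higher set and 0 to the lower. The cytokinin oxidase CKX4 (Os01g0940000), higher than WT in all libraries of both lines, stood just outside the fold limit, at 1.488 in OE and 6.02 in the mutant. RR6 (Os04g0673300, chromosome 4), a type-A response regulator, had FPKM of 5.96, 3.88 and 1.23 in WT, 7.20, 14.6 and 7.28 in OE and 9.19, 16.1 and 8.71 in the mutant. OE and mutant libraries overlapped, and every one of them exceeded WT. Its fold was 2.28 in OE and 2.63 in the mutant, with a difference between the lines of 0.23 (SE 0.42, limma adjusted p = 0.69). LOGL3 (Os03g0109300, chromosome 3), a member of the family of cytokinin-activating LOG enzymes that is not in the list, was lower in both lines. It had FPKM of 29.02, 26.1 and 28.4 in WT, 7.94, 18.1 and 11.4 in OE and 17.5, 15.9 and 13.5 in the mutant. WT libraries lay close together and OE libraries spread widely around the mutant ones. WT was 2.14 times OE and 1.73 times the mutant on the FPKM + 1 scale, and the lines differed by 0.37 on the log2 scale (SE 0.23, limma adjusted p = 0.23). Of 11 tested genes of the cytokinin list, which covers response regulators and cytokinin oxidases, 5 passed as higher in the mutant against WT and none as lower. Over all genes tested 19.6% passed there as higher and 22.4% as lower. In OE 0 passed either way with limma or with voom, 8 had an unadjusted limma p under 0.05, all higher (10.1% of all genes in either direction), and the median log2 fold change was 0.62 in OE and 0.75 in the mutant. RR6, which both contrasts with WT helped to choose, is among these 5 and these 8. The 8 p-values rest on the same WT libraries and are not independent of each other. WT replicate 3 was the lowest WT library for the response regulators RR2, RR4, RR6, RR9 and RR10 and the oxidases CKX3 and CKX4, but not for RR1. RR9 had FPKM of 37.6, 30.2 and 11.6 in WT. Between the mutant and OE, 4 of the 11 were higher in the mutant (20.5% of all genes) and 3 lower (22.9%).

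The defence genes Cht1 (Os06g0726200) and Cht3 (Os06g0726100), which encode chitinases and are neighbours on chromosome 6, were both higher. Cht8 (Os10g0542900), the other tested chitinase of the list, did not meet the rule. Its means were 27.3, 51.2 and 10.1 FPKM in WT, OE and the mutant, with the mutant below OE by a log2 difference of -2.41 (SE 0.69, limma adjusted p = 0.019). Cht1 had FPKM of 5.17, 5.04 and 1.24 in WT, 9.11, 24.1 and 14.8 in OE and 6.43, 11.4 and 13.7 in the mutant. The lowest mutant library stood close above WT, and OE and the mutant overlapped. Its fold was 3.53 in OE and 2.39 in the mutant, and the lines differed by -0.53 on the log2 scale (SE 0.45, limma adjusted p = 0.38). Cht3 was nearly silent in WT at 0.15, 0.07 and 0 FPKM, with 3 reads in all, and reached FPKM of 0.22, 4.83 and 0.75 in OE and 0.16, 3.29 and 2.38 in the mutant. The lowest library of either line lay within 0.1 FPKM of WT, and 74 reads stood behind each line. The folds on the FPKM + 1 scale were 2.73 and 2.74, and the lines differed by 0.14 on the log2 scale (SE 0.60, limma adjusted p = 0.87). Chitinase genes are near copies of each other, and how the authors' counting divides reads between such copies is not given in the sources used here. Of 5 tested genes of the defence list, 1 was higher (Cht1) and 1 lower (NPR1) in the mutant against WT with limma, and 1 in all passed with voom. With limma 19.6% of all genes were higher there and 22.4% lower. Without adjustment, the limma p of this contrast was under 0.05 for 1 higher and 2 lower genes, and for 9898 of all 19850 genes tested. In the mutant 2 were lower than in OE, Cht8 and NPR1 (22.9% of all genes). In OE 0 of the 5 passed with limma or with voom. There 1 had an unadjusted limma p under 0.05 (10.1% of all genes), Cht1 itself, which this contrast helped to choose.

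BGLU13 (Os04g0474900, chromosome 4) encodes a beta-glucosidase, an enzyme that frees compounds from their sugar conjugates. It had FPKM of 7.83, 8.48 and 7.59 in WT, 22.4, 11.8 and 58.3 in OE and 14.02, 17.6 and 28.4 in the mutant. OE replicate 3 stood far above the rest, and the other OE libraries fell within or near the mutant range. Its fold was 3.55 in OE and 2.34 in the mutant, with a difference of -0.37 on the log2 scale (SE 0.47, limma adjusted p = 0.56). KSL6 (Os02g0571800, chromosome 2), a diterpene synthase of the family that makes rice phytoalexins and gibberellin precursors, was lower in both lines. It had FPKM of 11.4, 11 and 7.07 in WT, 5.53, 4.13 and 4.58 in OE and 1.87, 2.55 and 2.08 in the mutant. The 3 genotypes did not overlap, with OE between WT and the mutant. WT was 1.88 times OE and 3.43 times the mutant on the FPKM + 1 scale, and the mutant lay below OE by a log2 difference of -0.86 (SE 0.18, limma adjusted p = 0.0046). Of 8 tested genes of the phytoalexin list, which does not hold KSL6, 1 was higher in the mutant against WT with limma (19.6% of all genes) and 0 with voom. In the other comparisons 0 passed with either tool, and 0 had an unadjusted limma p under 0.05. Their median log2 fold change was 0.89 in OE and 1.46 in the mutant, opposite in sign to KSL6. CPS2 (Os02g0571100) alone of the list was below 0 in both, as KSL6 was, at -0.68 in OE and -1.46 in the mutant. Neither value passed (limma adjusted p = 0.79 and 0.13). For each of the 8 genes OE replicate 2 was the highest OE library, and KSL10 had FPKM of 0, 9.20 and 0.22 in OE.

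In nitrogen assimilation, GLN1-2 (Os03g0223400, chromosome 3), which encodes a cytosolic glutamine synthetase that binds ammonium into glutamine, was higher in both lines. It had FPKM of 14.3, 23.9 and 19.04 in WT, 36.5, 37.2 and 30.6 in OE and 36.3, 53.96 and 30.1 in the mutant. Both lines exceeded WT and overlapped with each other. Its fold was 1.78 in OE and 2.05 in the mutant, and the lines differed by 0.16 on the log2 scale (SE 0.22, limma adjusted p = 0.59). Of 6 tested nitrogen genes, 5 were higher in the mutant against WT (19.6% of all genes) and 0 were lower (22.4%). In OE 0 passed with limma or with voom, and 4 had an unadjusted limma p under 0.05, 2 higher and 2 lower (10.1% of all genes in either direction). GLN1-2, which both contrasts with WT helped to choose, is among these 5 and these 4. The median log2 fold change of the list was 0.99 in the mutant and -0.05 in OE. Of the 18 gene lists, 13 held none of the 192 genes among 55 tested genes, among them the clock, heat shock, chlorophyll, phosphate and sugar transport lists. Over all genes tested 0.967% belonged to the 192, so a count of 0 among so few genes shows nothing about these lists. Most of the 192 genes, 186 in number, belong to no list.

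**Figure D3:**
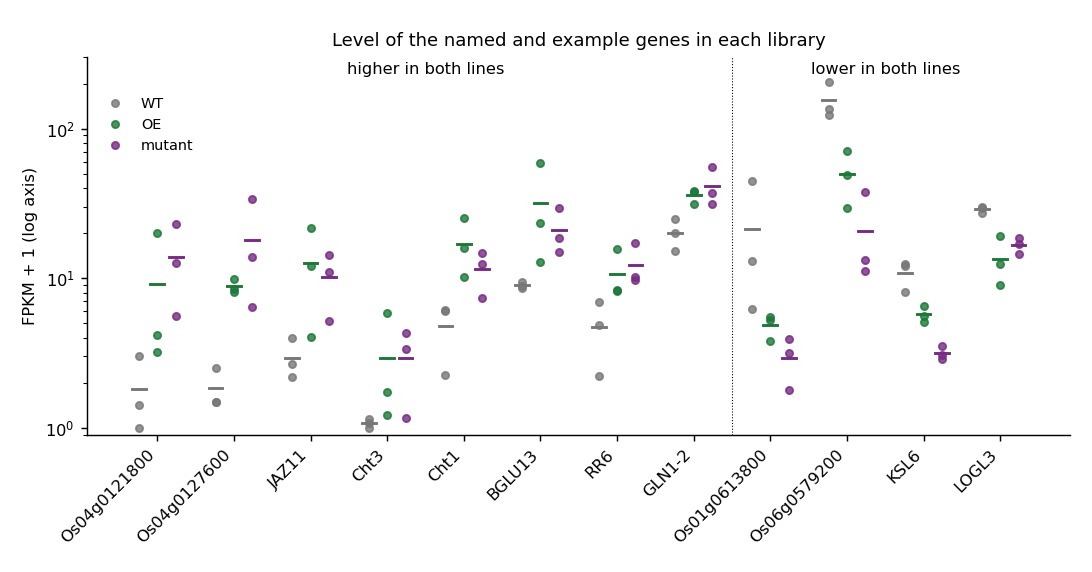
FPKM + 1 on a log axis in each of the 9 libraries, with bars at the mean of each genotype, for the 8 named genes and 4 unnamed ones. Genes left of the dotted line are higher in every OE and mutant library than in WT, those right of it are lower, and for KSL6 the 3 genotypes do not overlap.

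Among the genes without a name, Os04g0121800 and Os04g0127600 on chromosome 4 had the largest smaller fold of the higher genes. Os04g0121800 had FPKM of 0.42, 2.04 and 0 in WT, 2.23, 19.1 and 3.15 in OE and 4.63, 11.7 and 21.99 in the mutant. Os04g0127600 had FPKM of 0.48, 1.53 and 0.49 in WT, 7.12, 7.54 and 8.94 in OE and 5.46, 12.8 and 32.99 in the mutant. The OE libraries of the second gene lay close together, whereas those of the first spread widely. Their folds in OE were 5.03 and 4.84 and in the mutant 7.56 and 9.86. Of the lower genes, Os01g0613800 (chromosome 1) had FPKM of 43.9, 12.1 and 5.27 in WT, 4.53, 2.81 and 4.25 in OE and 0.80, 2.91 and 2.15 in the mutant. WT replicate 1 alone carried most of its WT mean. Os06g0579200 (chromosome 6) had FPKM of 204, 135 and 123 in WT, 28.6, 69.6 and 47.8 in OE and 12.2, 36.5 and 10.2 in the mutant. The mutant lay below OE by a log2 difference of -1.40 (SE 0.46, limma adjusted p = 0.033). That call was lost when OE replicate 2, OE replicate 3, mutant replicate 1 or mutant replicate 3 was left out, with limma adjusted p = 0.11, 0.078, 0.11 and 0.11. For Os04g0121800, Os04g0127600 and Os01g0613800 the lines did not differ past the threshold (limma adjusted p = 0.37, 0.28 and 0.33). Without mutant replicate 1, Os04g0127600 was higher in the mutant by 1.29 (limma adjusted p = 0.027).

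The genes named from here on were singled out after their values were seen. The 8 genes past the threshold in OE against WT, a comparison that chose them and is given as a description, were Os01g0626400, Os02g0578000, Os03g0103200, Os03g0103300, Os04g0398000, Os05g0563900, Os10g0173000 and Os10g0419400. Os02g0578000 was the lower one, with FPKM of 3.02, 3.68 and 2.48 in WT, 0.79, 0.37 and 0.12 in OE and 0.55, 1.31 and 0.48 in the mutant. In Os01g0626400 (chromosome 1) libraries lay close together within OE and within the mutant, and less so within WT. Its FPKM were 1.17, 2.11 and 2.32 in WT, 5.11, 5.09 and 5.29 in OE and 4.50, 4.33 and 5.001 in the mutant. The lines differed there by -0.14 (SE 0.16, limma adjusted p = 0.53). Os10g0173000 (chromosome 10) had FPKM of 4.89, 4.52 and 6.59 in WT, 12.6, 10.4 and 10.3 in OE and 59.99, 72.6 and 56.3 in the mutant. Its groups formed steps with no overlap, and the mutant exceeded OE by 2.40 on the log2 scale (SE 0.15, limma adjusted p = 3.9e-06). The count of 8 in OE was 3 without WT replicate 1, 4 without WT replicate 2 or OE replicate 3, 5 without OE replicate 2, 14 without WT replicate 3 and 15 without OE replicate 1. Only 3 to 5 of the 8 kept their call with a library left out, and 5 did in each of these last settings.

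Between the lines, 6 genes passed the threshold with OE further from WT than the mutant. The higher ones were Os01g0793800, Os03g0103300 and Os04g0398000. Os04g0398000 (chromosome 4) had FPKM of 2.22, 2.302 and 1.57 in WT, 48.5, 28.98 and 25.6 in OE and 9.72, 8.97 and 4.67 in the mutant. All 3 groups were apart, and the mutant lay below OE by a log2 difference of -2.01 (SE 0.28, limma adjusted p = 0.00045). Os03g0103300 (chromosome 3) had FPKM of 5.66, 8.79 and 5.86 in WT, 49.1, 74.8 and 72.7 in OE and 9.97, 15.7 and 15.3 in the mutant, a log2 difference of -2.18 between the lines (SE 0.23, limma adjusted p = 6.9e-05). Its neighbour Os03g0103200 had FPKM of 6.88, 28.6 and 8.94 in WT, 102, 194 and 145 in OE and 41.1, 40.7 and 119 in the mutant. There mutant replicate 3 reached into the OE range, and the lines did not differ past the threshold (log2 fold change -1.27, SE 0.54, limma adjusted p = 0.086). Of the lower genes, 3 lay further from WT in OE, all in a run on chromosome 7 described next.

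Some of the genes sat side by side. With genes of the same direction joined when they lay within 5 rows of each other in the table, 16 of the 87 lower genes formed 4 runs (18.4%) and 13 of the 105 higher genes formed 6 runs (12.4%). This spacing was chosen after the genes were known and was not tested. Each run begins and ends at one of the chosen genes, so their share within a run follows in part from how runs were drawn. In a run on chromosome 11 between Os11g0690332 and Os11g0691500, all 6 tested genes belonged to the lower set, with a median log2 fold change of -0.79 in OE and -3.69 in the mutant. Os11g0690466 there had FPKM of 595, 415 and 319.8 in WT, 214, 195 and 201 in OE and 14.8, 36.7 and 28.2 in the mutant. Os11g0691500 had FPKM of 500.0, 292 and 294 in WT, 164, 218 and 253 in OE and 2.91, 11.02 and 6.17 in the mutant. WT, OE and the mutant formed separate steps for both genes, with the mutant far below OE. Os11g0691280 in the same run was at 41.4 ± 8.598 FPKM in WT, 23.5 ± 6.71 in OE and 19.6 ± 1.75 in the mutant (SD, n = 3), so its lines lay close together.

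The run on chromosome 7 between Os07g0136800 and Os07g0137500 went the other way. Of its 5 tested genes 4 belonged to the lower set, and the run had a median log2 fold change of -2.81 in OE and -0.87 in the mutant. These 4 genes passed in neither contrast with WT, with limma adjusted p from 0.14 to 0.24 in OE and from 0.082 to 0.44 in the mutant. Os07g0136866 had FPKM of 96.5, 77.8 and 47.98 in WT, 25.6, 8.94 and 0.38 in OE and 36.3, 34.9 and 43.8 in the mutant. OE libraries differed widely among themselves while the mutant libraries lay close together. The mutant exceeded OE by 2.45 on the log2 scale (SE 0.85, limma adjusted p = 0.041), and Os07g0136800 and Os07g0137000 did so by 1.91 and 1.96 (limma adjusted p = 0.023 and 0.036). In each of these 3 genes OE replicate 3 was the lowest OE library, at 0.38, 0.02 and 0 FPKM. The remaining tested gene of the run, Os07g0137200, had FPKM of 47.6, 45.05 and 34.96 in WT, 27.96, 17.33 and 6.20 in OE and 32.7, 33.9 and 30.3 in the mutant. It too had lower values in every OE and mutant library than in WT.

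On chromosome 9, the run between Os09g0471300 and Os09g0471800 held 4 lower genes among 5 tested, with median log2 fold changes of -0.87 in OE and -1.63 in the mutant. Os09g0471500 had FPKM of 51.8, 40.9 and 21.97 in WT, 12.2, 17.97 and 16.8 in OE and 3.89, 9.50 and 7.63 in the mutant. All 3 genotypes were apart in that gene. On chromosome 3, Os03g0734100, Os03g0734200 and Os03g0734300 were all in the higher set, with a median log2 fold change of 1.10 in OE and 1.85 in the mutant. Os03g0734300 had FPKM of 0.56, 1.45 and 0 in WT, 2.17, 9.28 and 4.48 in OE and 10.99, 17.98 and 6.13 in the mutant. Its lines overlapped while WT stayed below both. On chromosome 7, Os07g0599500 and Os07g0599600 had median log2 fold changes of 0.98 in OE and 3.53 in the mutant. By chromosome, the 192 genes made up 0.38% of the tested genes of chromosome 8 at the least and 1.25% of those of chromosome 11 at the most, against 0.967% overall.

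**Figure D4:**
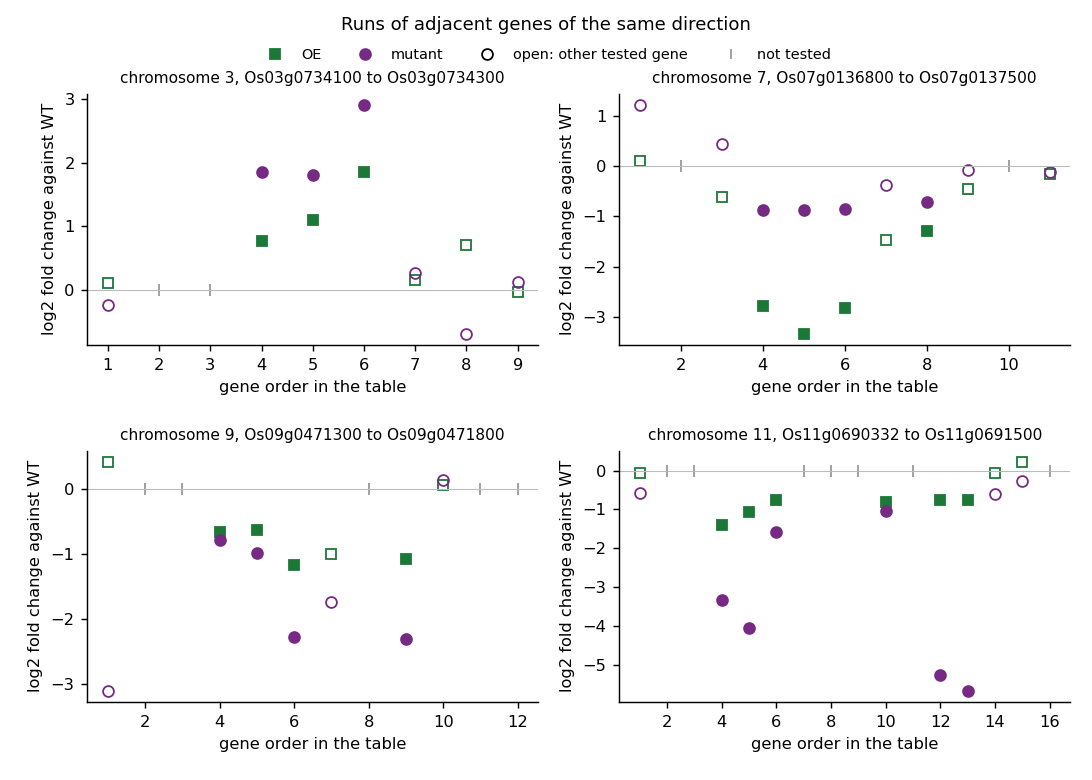
Log2 fold change of FPKM + 1 against WT for OE (squares) and the mutant (circles), by gene order in the table, for the 4 runs with the most genes and 3 rows on each side. Filled symbols belong to the 192 genes, open symbols are other tested genes and ticks mark genes too low to test. OE lies lower than the mutant in the chromosome 7 run and the mutant lower than OE in the chromosome 11 run.

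The highest gene of the set was Os12g0516200 (chromosome 12), with FPKM of 2696, 2993 and 2518 in WT, 2005, 1781 and 1594 in OE and 1833, 2156 and 1176 in the mutant. The lines overlapped, and their log2 difference was -0.10 (SE 0.24, limma adjusted p = 0.77). Os04g0683700 (chromosome 4) reached the highest mutant level of the higher genes, with FPKM of 18.8, 27.3 and 25.9 in WT, 36.1, 35.7 and 52.5 in OE and 161, 304 and 350.2 in the mutant. Its OE libraries stood nearer to WT than to the mutant, and the mutant exceeded OE by 2.63 (SE 0.28, limma adjusted p = 8.5e-05). Os11g0641500 (chromosome 11) had 0 reads in WT, 225 in OE and 567 in the mutant, at least 75.9-fold and 199-fold higher against a floor of 3 reads over the WT libraries. Its OE libraries were at 0.16, 9.24 and 0.64 FPKM and its mutant libraries at 0.98, 6.99 and 17.0 FPKM, so single libraries carried much of each mean. Os02g0248440 (chromosome 2) had 52 reads in WT, 26 in OE and 0 in the mutant, where WT was at least 16.5-fold higher against the same floor. These floors cover counting error only.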

How the data were processed

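Libraries of total RNA from rice leaves, 3 for each of 3 genotypes, were made with Illumina's TruSeq kit, per the labels' protocols. Values were deposited by the authors as FPKM per gene on the build IRGSP-1.0, with Bowtie 0.12.2 and Cuffdiff among the tools, per the submitters' processing notes. How reads were divided between genes is not given in the sources used here. A further per-sample column (1) matches no sample and was not used.

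Whole reads were recovered from the FPKM steps for all 30062 genes above 0, at a relative tolerance of 3e-07. The gene length they imply came within 0.05 of a whole base for 91.1% of these genes, and the reads of the others are less certain. The lowest implied length of a tested gene was 0.198 bases, so some recovered reads are wrong. The scale of a library was fitted so that gene lengths come out whole, so the totals are approximate. The 19850 genes whose mean reached 1 FPKM were tested on log2(FPKM + 1), which understates changes of low genes, with limma 3.58.1 in R 4.3.3. All libraries were in 1 fit with a trended eBayes, and two-sided p-values were adjusted by Benjamini-Hochberg within each contrast, with a threshold of 0.05. Limma voom on the recovered reads was added as an alternative after seeing the data.

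The members and lists were chosen with earlier results of these data known. Names are paired with identifiers from general knowledge and printed where RefSeq (ASM3414082v1) holds that name on the same chromosome within 0.03 of the same relative rank. Of 12 pairs for members 8 met this. Of these, 5 were paired with no regard to the members and 3 were recalled once the members were known. A further 3 pairs came to mind only with the RefSeq neighbours in view and are left unnamed. Of the list pairs 118 of 169 met the check. OsCOMT is a name from the labels, and its pairing with Os08g0157500 was not put through the check. Described were all members so named, and the 2 higher and 2 lower unnamed members with the largest smaller fold. A result of the flowering list, with 1 member that the rule would name, is not reported here. Chromosomes are those of the identifiers.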

Additional observations from a re-analysis of the deposited data

How the results depend on the processing

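The count of genes called in the mutant against OE stayed within 1.5 times its value of 81 under every alternative run, at 58 to 88, and at 66 to 80 with each library left out in turn. The count in the mutant against WT, 175, was 119 to 182, and 156 to 179 with a library left out. With a mean of at least 5 FPKM demanded, both counts come from the 126 genes that remain. The count in OE against WT, 8, fell to 5 with a pseudocount of 0.1, to 3 with no filter, to 5 with a mean of at least 5 FPKM and to 3 with voom on recovered reads, and ran from 3 to 15 with a library left out, where 3 to 5 of the 8 genes stayed. The 105 higher genes became 36 at a fold of at least 2, 43 with a pseudocount of 5 in the fold, 67 with a mean of at least 5 FPKM and 252 with overlap allowed. The 87 lower genes became 24 at a fold of at least 2, 134 and 47 with pseudocounts of 0.1 and 5 in the fold and 173 with overlap allowed. With a library left out, the counts ran from 101 to 186 and from 84 to 232. A group with fewer libraries meets the demand for no overlap more easily, which by itself can raise these counts. Of the 105, 90 to 101 stayed, and of the 87, 67 to 87. The higher genes numbered 186 without OE replicate 1 and 158 without WT replicate 2, and the lower genes 232 without WT replicate 3 and 164 without OE replicate 1. The mutant against OE log2 fold change changed sign with a library left out for JAZ11 (-0.79 to 0.42), GLN1-2 (-0.07 to 0.35), BGLU13 (-0.88 to 0.22), RR6 (-0.03 to 0.53) and Cht3 (-0.32 to 0.72), none of which passed the threshold in any setting. Os06g0579200 also missed it with no filter (adjusted p = 0.053) and with only the 2 groups compared (0.057), and LOGL3 passed without OE replicate 2 (0.65, adjusted p = 0.013). The cause of these changes was not tested. Same-numbered libraries of different genotypes deviated from their group means with correlations of -0.07 to 0.21, and differently numbered ones with -0.23 to 0.22. With 3 libraries per genotype, these values cannot settle whether the numbers pair the samples. With the replicate block 88, 8 and 175 genes were called in the mutant against OE, OE against WT and the mutant against WT, but of the 8 in OE only 4 were the same genes. Depth limits the lowest genes, with a median of 112 WT reads behind the higher set.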
